A study of Mus musculus with 8 samples.

Results

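The E2F and retinoblastoma (Rb) family genes were followed in mouse embryonic fibroblasts (MEFs) in which E2F3, a member of the family, carried the L430Q change that impairs its binding to Rb proteins. The members were chosen by name, as the 10 genes E2f1, E2f2, E2f3, E2f4, E2f5, E2f6, E2f8, Rb1, Rbl1 and Rbl2. The platform annotation named a probe for 9 of the 10, and all 9 had a probe detected on at least 2 arrays. E2f8 was not analysed here. The 9 genes were tested among 10214 array features.

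The study compared E2F3LQ MEFs, homozygous for the knock-in, with wild-type (WT) littermate MEFs. All cells came from embryos of day 13.5 of the C57BL/6 background, were used at low passage, and shared the breeding with Mox2Cre mice that removed the selection cassette of the targeted allele. WT clones 1 and 16 and E2F3LQ clones 2 and 4 were each measured once while proliferating in 10% fetal bovine serum (FBS) and once after 72 h of serum starvation, for which the sample labels give 0% FBS. This made 8 Illumina bead arrays in 4 groups of 2, and their number limits the precision. The sources used here do not say whether the clones of a genotype came from separate embryos, so a p-value covers no more than the spread among these arrays, which may be technical.

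Most E2F proteins bind DNA as partners of DP proteins at the promoters of genes for DNA replication and cell cycle entry. E2F1, E2F2 and E2F3 are known as activators, E2F4 and E2F5 as repressors that work with Rb proteins, and E2F6 and E2F8 as repressors that lack the Rb-binding domain. The Rb proteins, pRb (Rb1), p107 (Rbl1) and p130 (Rbl2), hold E2F proteins in check in resting cells until cyclin-dependent kinases (CDKs) phosphorylate them, and several genes of both families are themselves known E2F targets.

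Promoters of the members are shown because the promoters of this family are themselves known to bear E2F sites. RefSeq windows of the GRCm38.p6 build, from 250 bases before to 50 bases after a gene's start, were found for 7 of the 10 members, in 9 windows. They were searched on both strands for 4 spellings of the E2F site, TTTCCCGC, TTTGGCGC, TTTCGCGC and TTTGCCGC, which do not overlap one another in these matches. Each line below gives the 100 bases before a start, 5′ to 3′ on the strand of the gene, with a match in capitals.
E2f1, chr2:154569427-154569526, minus strand: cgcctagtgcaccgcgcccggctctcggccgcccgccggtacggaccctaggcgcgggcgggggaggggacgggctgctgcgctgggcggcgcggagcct
E2f2, chr4:136172174-136172273, plus strand: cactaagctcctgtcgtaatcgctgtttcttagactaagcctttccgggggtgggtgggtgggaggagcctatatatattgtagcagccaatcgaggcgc
E2f3, upstream start, chr13:29986064-29986163, minus strand: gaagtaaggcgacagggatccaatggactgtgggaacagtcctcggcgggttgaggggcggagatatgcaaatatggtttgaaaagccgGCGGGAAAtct
E2f3, downstream start, chr13:29984392-29984491, minus strand: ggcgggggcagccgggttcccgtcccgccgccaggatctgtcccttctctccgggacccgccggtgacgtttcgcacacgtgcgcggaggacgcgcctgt
Rbl1, chr2:157204535-157204634, minus strand: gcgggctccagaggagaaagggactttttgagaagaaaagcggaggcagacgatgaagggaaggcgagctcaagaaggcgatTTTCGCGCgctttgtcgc
Of the 9 windows, 3 held a match, against 2.26% of all 32851 windows of that table. The upstream E2f3 window had TTTCCCGC on the other strand (1.07% of all windows), and Rbl1 had TTTCGCGC (0.323%) on its own strand. In one of the E2f2 windows TTTGGCGC (0.514%) lay after the start, outside the stretch shown. The windows of E2f1, E2f6, E2f8 and Rbl2, the downstream E2f3 window and the other E2f2 window held none of these letters, and E2f4, E2f5 and Rb1 were not among the windows used. A match is a description of letters and not a bound site.

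Before the results, the arrays themselves were compared. The median of the deposited signals before normalization lay between 108.4 and 127.3 per array. Between 12141 and 12420 of 25697 probes per array had a detection p under 0.05. The array of proliferating E2F3LQ clone 2 stood apart, where 685 features were over 2-fold away from the average of its 3 fellow arrays of proliferating cells, a number that was 103 to 223 on those arrays. Of 10 fibroblast markers, 9 were measured and all 9 were detected on every array, with a summed signal of 24210 to 26380 in proliferating and 28590 to 33990 in starved cells. Of 13 macrophage and blood cell markers, 10 were measured, and their summed signal was 2983 to 6671 in proliferating WT, 760.5 to 4820 in proliferating E2F3LQ, 4086 to 4122 in starved WT and 1247 to 3151 in starved E2F3LQ MEFs. Of 5 endothelial markers, 2 were measured, Kdr and Tek, while Pecam1, Cdh5 and Tie1 did not pass the detection filter. Their summed signal was 22.04 to 49.55 in proliferating and 112 to 171.6 in starved cells. Of 5 epithelial markers, 2 were measured, Krt19 and Cdh1, while Krt8 and Krt18 did not pass. The summed signal of these 2 was 20.52 to 75.6 in proliferating and 14.59 to 25.12 in starved cells.

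Serum starvation was the comparison in which members of the family changed. Over both genotypes, 4 of the 9 measured members passed an adjusted p of 0.05 (limma, 4 starved against 4 proliferating arrays), which 22.4% of all 10214 features also did. Rb1 and E2f1 rose, against 10.9% of all features called higher, and E2f3 and E2f2 fell, against 11.5% called lower. The remaining members, E2f4, E2f5, E2f6, Rbl1 and Rbl2, did not pass. With the clone as a block, which pairs the arrays of a clone, 2 members were called, Rb1 and E2f3, and the same 2 without both arrays of E2F3LQ clone 2. The median log2 change of the 9 members was -0.10, and that of all features was 0.00. Marker genes of cell types changed in the same comparison. Of the 9 fibroblast markers 4 rose, among them Dcn (2.41), Pdgfra (1.67) and Col3a1 (1.64), and 2 fell, Col1a1 (-0.96) and Thy1 (-0.73). Of the 10 macrophage and blood cell markers 5 fell and 0 rose, and among those that fell were Mrc1 (-1.82), C1qa (-1.46) and Cx3cr1 (-0.67). Of 2 measured endothelial markers Tek rose (1.74), and of 2 epithelial markers Krt19 fell (-1.18). Their part in the changes of the members was not tested. All levels below are log2 signals after background correction and quantile normalization with an offset of 16, so that differences of dim genes are understated, and levels of different genes cannot be set against each other. In bulk samples, fewer cells of a type and less RNA per cell cannot be told apart.

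**Figure D1:**
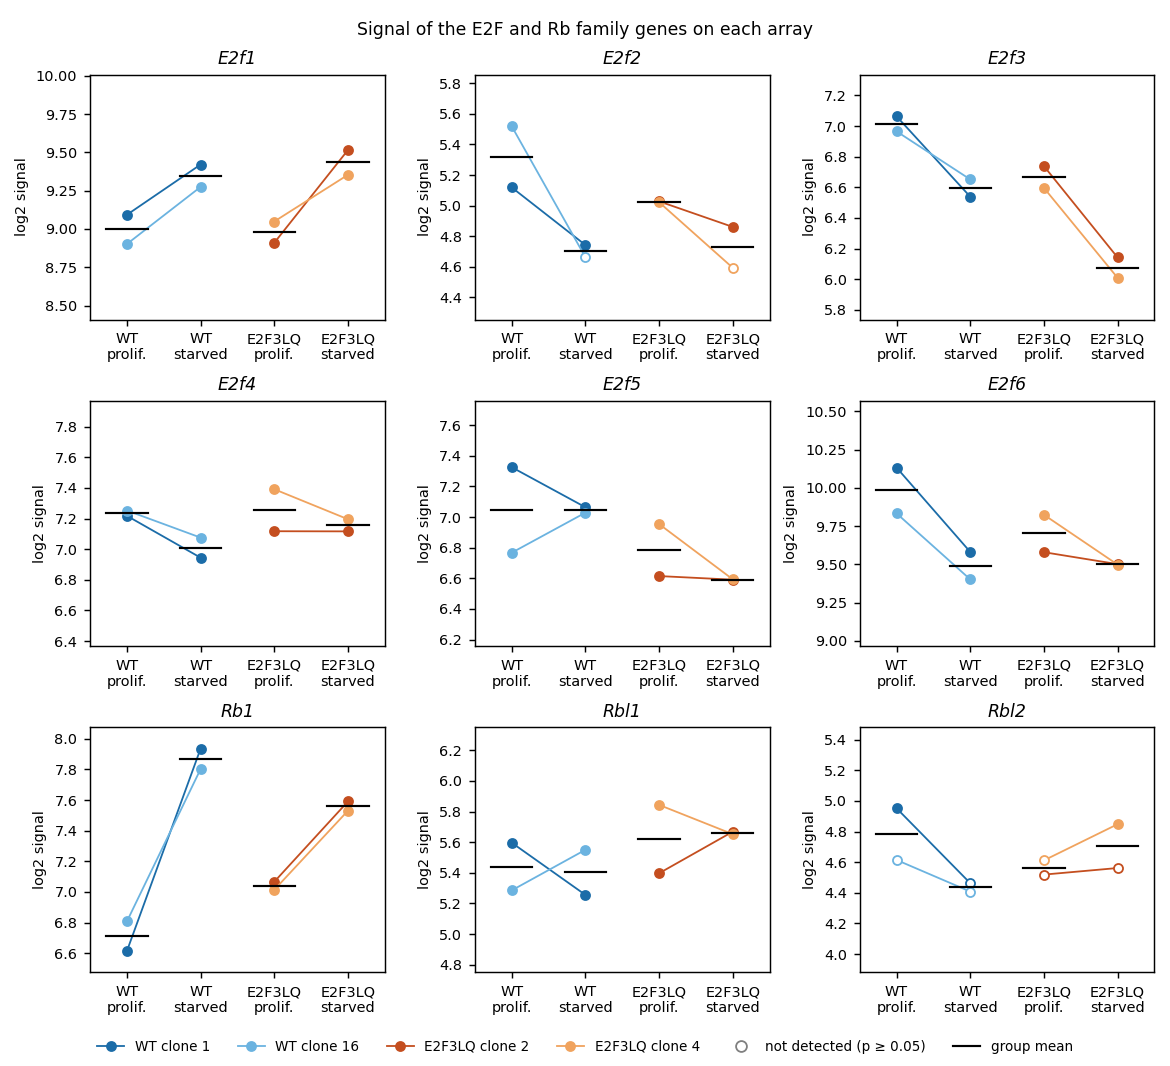
Log2 signal (vertical axis) of the 9 measured genes in the 4 groups (horizontal axis), 1 point per array, with lines joining the 2 arrays of a clone, black bars at group means and open circles where the probe was not detected. Rb1 and E2f1 are higher in starved than in proliferating cells of all 4 clones, E2f3 and E2f2 are lower in all 4, and Rbl2 lies near background.

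Rb1 encodes pRb, the founding member of the Rb family. In proliferating cells its log2 signal was 6.61 and 6.81 in WT clones 1 and 16 and 7.07 and 7.01 in E2F3LQ clones 2 and 4. After starvation it was 7.94 and 7.80 in WT clones 1 and 16 and 7.59 and 7.53 in E2F3LQ clones 2 and 4. Every starved array lay above every proliferating array, which 30.5% of all features also showed in one direction or the other. Over both genotypes Rb1 rose by 0.84 on the log2 scale (SE 0.11, adjusted p = 0.00304), a fold change of 1.79. The rise stayed past the threshold under each other normalization of this probe and without any one array.

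In WT cells alone Rb1 rose by 1.16 (SE 0.15, adjusted p = 0.0102), from 6.71 ± 0.14 to 7.87 ± 0.09 (SD, n = 2), and it was the single member called within a genotype, where 8.17% of all features were. In E2F3LQ cells it was 7.04 ± 0.04 and 7.56 ± 0.04 (SD, n = 2), a log2 difference of 0.52 (SE 0.15, adjusted p = 0.0961), and no member was called there, against 4.60% of all features. At an unadjusted p under 0.05, 3 members stood in the E2F3LQ comparison, where 2446 of all 10214 features did, and 4 in that of WT, where 2684 did. The WT call was lost without either starved WT array (adjusted p = 0.106 without clone 1 and 0.0941 without clone 16) and without proliferating WT clone 1 (0.0945). The difference between the serum changes of the genotypes was -0.64 (SE 0.21, adjusted p = 1.00), so the rise was not shown to differ between WT and E2F3LQ cells.

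A further Rb1 probe, detected on all 8 arrays, did not show the rise. Its log2 signal in proliferating cells was 6.87 and 6.80 in WT clones 1 and 16 and 7.65 and 6.72 in E2F3LQ clones 2 and 4. After starvation it was 7.14 and 7.06 in the WT clones and 7.14 and 6.97 in the E2F3LQ clones. Of the 4 clones, 3 were higher by 0.26 to 0.27 after starvation, and E2F3LQ clone 2 was lower, at -0.50. Over both genotypes the difference was 0.07 (SE 0.20, adjusted p = 0.827), so the Rb1 result rests on the probe read. The proliferating E2F3LQ clone 2 array, which stood apart over all features, gave the highest value of this probe. Which part of the transcript each probe reads was not tested.

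E2f1 encodes an activator E2F. In proliferating cells its probe read 9.09 in WT clone 1, 8.90 in WT clone 16, 8.91 in E2F3LQ clone 2 and 9.05 in E2F3LQ clone 4 (log2 signal). In starved cells the values were 9.42 and 9.27 in the WT clones and 9.52 and 9.35 in the E2F3LQ clones. The 4 starved arrays lay above the 4 proliferating ones, and the rise within a clone ran from 0.30 to 0.61. Over both genotypes E2f1 rose by 0.40 (SE 0.11, adjusted p = 0.0416), a fold change of 1.32. The call is close to the threshold: the adjusted p was 0.0646 with the clone as a block, and it ran from 0.0596 to 0.149 when any array except proliferating E2F3LQ clone 4 was left out. With arrays scaled by their medians in place of quantiles, the median change of all features was -0.13 and the rise of E2f1 was 0.19 (adjusted p = 0.504).

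E2f3 encodes the protein mutated in these mice, also an activator. The knock-in changes a codon, so the level of its RNA does not check the genotype labels. In proliferating cells the log2 signal was 7.06 and 6.97 in WT clones 1 and 16 and 6.74 and 6.60 in E2F3LQ clones 2 and 4. In starved cells it was 6.54 and 6.65 in the WT clones and 6.14 and 6.01 in the E2F3LQ clones. Every clone fell, by 0.31 to 0.60, although the starved WT arrays overlapped the proliferating E2F3LQ arrays. Over both genotypes E2f3 fell by 0.51 (SE 0.11, adjusted p = 0.0160), or 1.42-fold. The fall was called with median scaling (adjusted p = 0.0138), and it was not called without proliferating WT clone 1 (0.0599), starved E2F3LQ clone 4 (0.0642), starved WT clone 1 (0.0761) or starved WT clone 16 (0.0592). Within a genotype the log2 difference was -0.42 in WT (adjusted p = 0.130) and -0.59 in E2F3LQ (adjusted p = 0.0711).

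E2f2, the further activator of the family, was dim. Its probe was detected on 6 of the 8 arrays, with raw signals of 133.4 to 138.9 in proliferating and 108.4 to 121.2 in starved cells. On the log2 scale proliferating cells read 5.12 in WT clone 1, 5.52 in WT clone 16, 5.03 in E2F3LQ clone 2 and 5.02 in E2F3LQ clone 4. After starvation it was 4.74 and 4.66 in the WT clones and 4.86 and 4.59 in the E2F3LQ clones, and was not detected in WT clone 16 and E2F3LQ clone 4. The starved arrays lay below the proliferating ones, and E2f2 fell by 0.46 (SE 0.13, adjusted p = 0.0454). The call was lost with the clone as a block (adjusted p = 0.0651) and without each array except proliferating WT clone 1 (0.0512 to 0.146). In all, 5 of 20 alternatives kept it, with differences from -0.56 to -0.12, the smallest with no background correction. The next brightest E2f2 probe, detected on 5 of 8 arrays, was lower after starvation in 3 of the 4 clones and higher by 0.17 in E2F3LQ clone 4, with a difference of -0.30 (SE 0.17, adjusted p = 0.231), and a further E2f2 probe was not detected on any array.

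**Figure D2:**
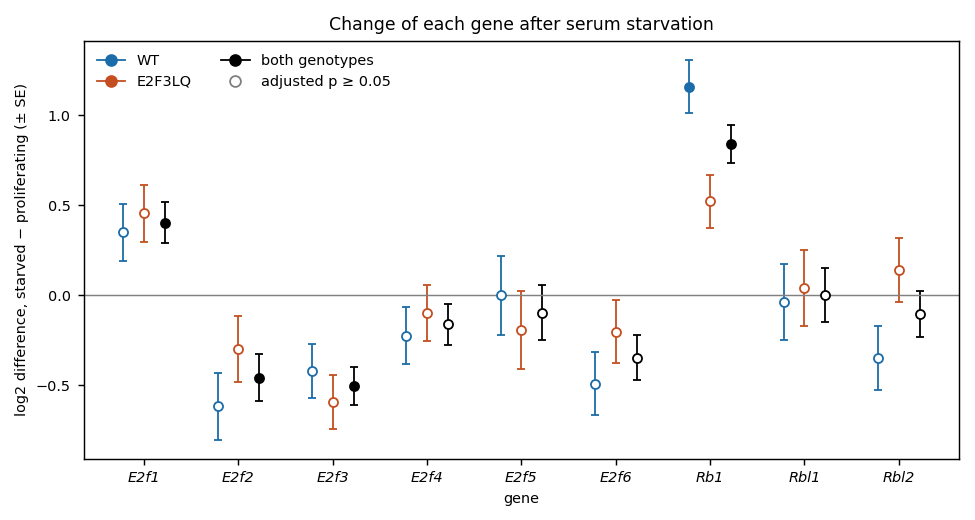
Log2 difference between starved and proliferating cells (vertical axis, ± SE) of each measured gene (horizontal axis) in WT, in E2F3LQ and over both genotypes, with filled points where the adjusted p was under 0.05. Rb1 at 0.84 and E2f1 at 0.40 are filled above the line over both genotypes, and E2f3 at -0.51 and E2f2 at -0.46 below it.

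Among the repressors, E2f4 and E2f5 encode the E2F proteins that act mainly with Rb proteins, and E2f6 an E2F found in Polycomb complexes. The log2 signal of E2f4 lay between 6.94 and 7.39, and its serum difference was -0.16 (SE 0.11, adjusted p = 0.333). E2f5 lay between 6.59 and 7.33, with a difference of -0.10 (SE 0.15, adjusted p = 0.687), and its WT clones moved apart, clone 1 by -0.26 and clone 16 by 0.26. A further E2f5 probe was not detected on any array. Neither gene had starved and proliferating arrays that were fully separated.

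E2f6 was read by 3 probes, each detected on all 8 arrays. The brightest read 10.13 in WT clone 1, 9.83 in WT clone 16, 9.58 in E2F3LQ clone 2 and 9.82 in E2F3LQ clone 4 while proliferating, and 9.40 to 9.58 in starved cells. All 4 clones were lower after starvation, E2F3LQ clone 2 by the smallest step of -0.08, and the difference of -0.35 did not pass (SE 0.12, adjusted p = 0.0855). The next brightest was lower too, at -0.42 (SE 0.13, adjusted p = 0.0530). The dimmest of the 3 fell by 0.81 (SE 0.15, adjusted p = 0.0121), from 7.05 to 7.65 in proliferating to 6.38 to 6.57 in starved cells, with every clone lower by at least 0.61. With the mean of the 3 probes E2f6 fell by 0.52 (adjusted p = 0.0242). It was called under 2 of 20 alternatives, so its call depended on the probe and on the setting.

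**Figure D3:**
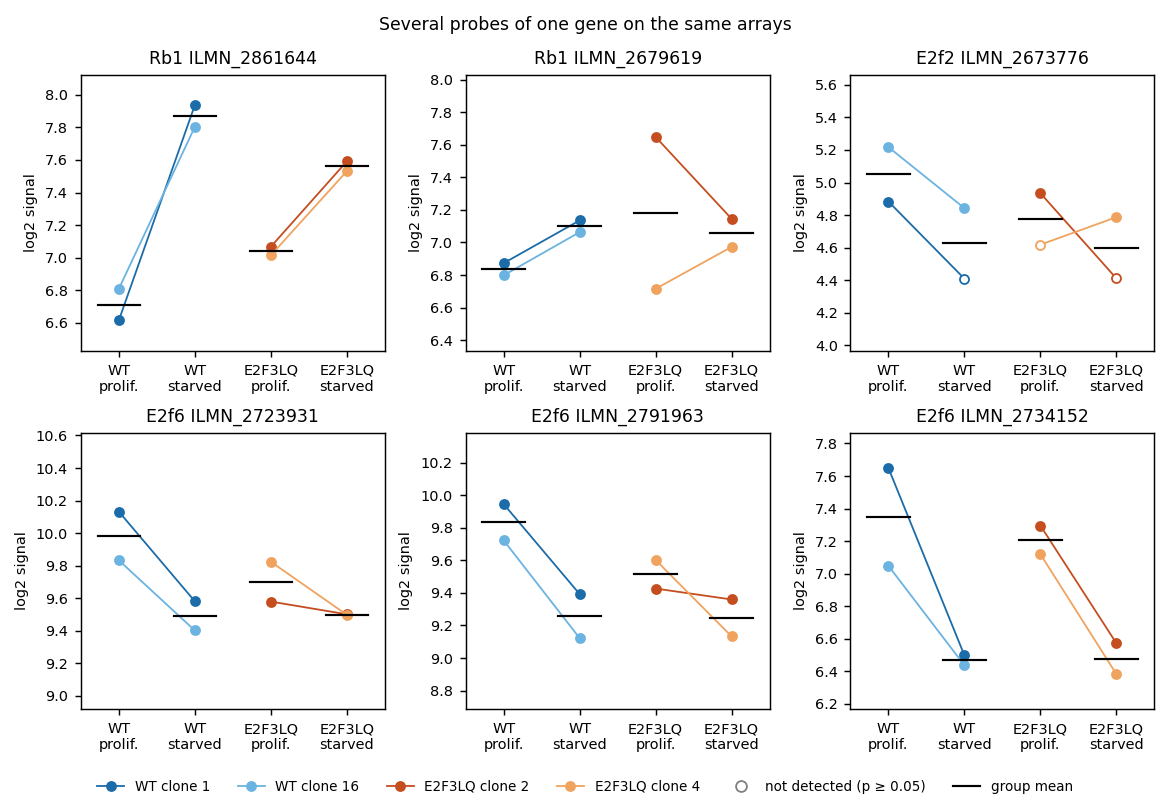
Log2 signal (vertical axis) of single probes of Rb1, E2f2 and E2f6 in the 4 groups (horizontal axis), 1 point per array, with lines joining the arrays of a clone, black bars at group means and open circles where not detected. The Rb1 probes differ, the first rising in 4 of 4 clones and the other in 3 of 4, while the 3 E2f6 probes are lower after starvation in all 4 clones, at -0.35, -0.42 and -0.81 on average.

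The pocket proteins other than pRb did not pass the test. Rbl1, which encodes p107, lay between 5.26 and 5.84 on the log2 scale, with a serum difference of 0.00 (SE 0.15, adjusted p = 0.997) that changed sign with the normalization (-0.16 with median scaling). Rbl2, which encodes p130, known for its complexes with E2F4 in resting cells, was at the edge of detection. It was detected in proliferating WT clone 1 (4.95) and starved E2F3LQ clone 4 (4.85) and not well above background on the other 6 arrays (4.41 to 4.61). In WT cells it was detected on 1 of 2 proliferating and 0 of 2 starved arrays. Its measured serum difference there was -0.35 (limma, SE 0.18, adjusted p = 0.268), and no least fold is given. A further Rbl2 probe was not detected on any array.

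The second comparison was that of the genotypes, the question being whether E2F3 that escapes Rb proteins goes with other levels of the family. In proliferating cells 0 of the 9 members passed, as did 0% of all features, and in starved cells 0 of 9 and 0% (limma, 2 against 2 arrays). At an unadjusted p under 0.05, 0 members stood in proliferating cells, where 289 of all features did, and 1, E2f3, in starved cells, where 226 did. The methods' unpaired test, run on the same values, put 0 members under 0.05 in proliferating cells and E2f3 and E2f5 in starved cells, against 215 and 555 of all features. After Benjamini-Hochberg adjustment it left 0 members in each, and 0 and 2 of all features.

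E2f3 RNA was lower in both E2F3LQ clones than in both WT clones under either condition. The log2 difference was -0.35 (SE 0.15, adjusted p = 0.999) in proliferating cells, between 6.67 ± 0.10 in E2F3LQ and 7.01 ± 0.07 in WT (SD, n = 2). In starved cells it was -0.52 (SE 0.15, adjusted p = 1.00), between 6.08 ± 0.09 and 6.60 ± 0.08 (SD, n = 2). Groups that did not overlap were common, at 21.9% of all features in proliferating and 33.9% in starved cells. The difference was negative under every alternative tried, between -0.42 and -0.14 in proliferating and between -0.59 and -0.24 in starved cells. These are RNA levels, and by western blot the study reported no significant effect of the mutation on E2F3 protein.

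Rb1 was higher in E2F3LQ than in WT in proliferating cells, by 0.33 (SE 0.15, adjusted p = 0.999), and lower in starved cells, at -0.31 (SE 0.15, adjusted p = 1.00), with no overlap between the genotypes in either. Neither difference passed, and the further Rb1 probe had overlapping groups in both conditions, with differences of 0.35 (SE 0.28) and -0.04 (SE 0.28). E2f5 differed by -0.26 (SE 0.22, adjusted p = 0.999) in proliferating and -0.45 (SE 0.22, adjusted p = 1.00) in starved cells. Its starved arrays were 7.06 and 7.03 in WT and 6.59 on both of E2F3LQ, while its proliferating arrays overlapped, and without proliferating WT clone 1 the difference there was 0.018.

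For E2f1 the genotypes overlapped in both conditions, with log2 differences of -0.02 (SE 0.16) and 0.09 (SE 0.16). E2f2 and E2f6 were lower in both proliferating E2F3LQ clones, at -0.29 (SE 0.19) and -0.28 (SE 0.17), and overlapped in starved cells, at 0.02 and 0.01. In proliferating cells the next brightest E2f2 probe (-0.27, SE 0.24) and the dimmest E2f6 probe (-0.14, SE 0.22) had overlapping genotypes. The next brightest E2f6 probe (-0.32, SE 0.18) did not overlap. E2f4 and Rbl1 overlapped in proliferating cells and were higher in both starved E2F3LQ clones, at 0.15 (SE 0.16) and 0.26 (SE 0.21). Together 5 of the 9 members had genotypes that did not overlap in proliferating cells, against 21.9% of all features. In starved cells these were 6 of 9, against 33.9% of all features. Both counts include Rbl2, whose probe was detected on 0 of 2 arrays in proliferating E2F3LQ and in starved WT cells. The 10 measured macrophage and blood cell markers differed between the genotypes in the same samples without passing the test, with a median log2 difference of -1.29 in proliferating and -0.89 in starved cells, 9 and 8 of the 10 lower in E2F3LQ. Without the arrays of E2F3LQ clone 2 these medians were -2.28, with 10 of 10 lower, and -0.20, with 9 of 10 lower. Their part in the differences of the members was not tested.

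**Figure D4:**
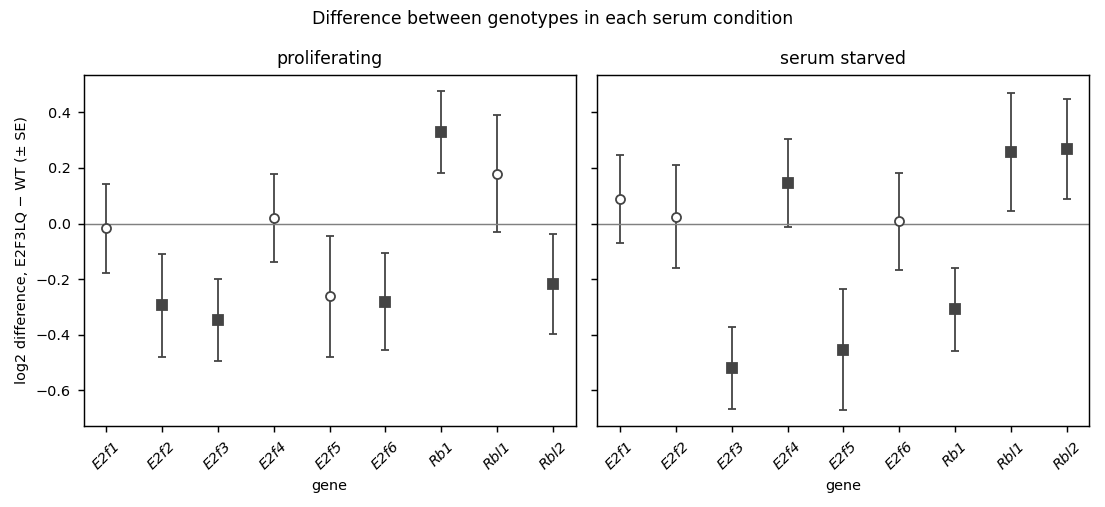
Log2 difference between E2F3LQ and WT (vertical axis, ± SE) of each measured gene (horizontal axis) in proliferating (left) and serum-starved cells (right), with filled squares where the 2 arrays of one genotype did not overlap the 2 of the other. E2f3 is below zero in both panels, at -0.35 and -0.52, and Rb1 changes side from 0.33 to -0.31.

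The interaction of genotype and serum was called for 0 of 9 members and for 0% of all features (limma). Rb1 had the lowest estimate of the members, -0.64. At an unadjusted p under 0.05 stood 1 member, Rb1, and 156 of all features. Within WT, 7 of the 9 members had starved and proliferating arrays that did not overlap, against 62.4% of all features, and within E2F3LQ 6 of 9, against 49.7%. The WT count includes Rbl2, which lay near background.

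The partners and regulators of the families were read from fixed lists. In the serum comparison over both genotypes, 11.5% of all features were called lower and 10.9% higher, the shares to set beside each count. The DP proteins, with which most E2Fs bind DNA, were represented by Tfdp1 and Tfdp2. Neither passed in the serum comparison, at -0.09 (SE 0.10) and -0.47 (SE 0.20, adjusted p = 0.128). E2f7, an atypical repressor, did not pass the detection filter. Of the cyclins and kinases that phosphorylate Rb proteins, 6 were measured and 1 fell, Ccne2, a cyclin of S phase entry, by 1.15 (SE 0.19, adjusted p = 0.00682). The D-type cyclins Ccnd2 and Ccnd1, which partner CDK4 and CDK6, had differences of 0.40 (adjusted p = 0.0651) and 0.37 (adjusted p = 0.0749).

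CDK inhibitors keep Rb proteins unphosphorylated. Of 7 measured, 2 rose and 0 fell, against 10.9% and 11.5% of all features. The median log2 change of the list was 0.27, which was 0.11 without the proliferating array of E2F3LQ clone 2 and 0.16 with median scaling. Cdkn2a, which encodes p16INK4a and p19ARF, was 6.85 to 7.85 in proliferating and 10.45 to 10.87 in starved cells, a rise of 3.28 (SE 0.17, adjusted p = 0.000358). Cdkn2b, which encodes p15INK4b, rose by 0.57 (SE 0.13, adjusted p = 0.0246). Cdkn2d, the next by p, had a difference of -0.17 (SE 0.13, adjusted p = 0.366).

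Of the chromatin corepressors recruited by Rb proteins, 9 were measured, 3 fell and 0 rose, against 11.5% and 10.9% of all features. The median of the list was -0.49. Rbbp7, a histone-binding subunit of several chromatin complexes, fell by 1.24 (SE 0.14, adjusted p = 0.00235), Ezh2, the Polycomb histone methyltransferase, by 1.21 (SE 0.27, adjusted p = 0.0212), and Hdac1, a histone deacetylase, by 0.54 (SE 0.14, adjusted p = 0.0299). Among 3 measured genes of the MuvB core and its partners, Foxm1, a transcription factor of mitotic genes, fell by 0.81 (SE 0.17, adjusted p = 0.0156), while Mybl2, which encodes B-Myb, had a difference of -0.52 (adjusted p = 0.0610) and Lin54, the DNA-binding subunit, of 0.04. Of 7 measured E2F6 partners 0 passed, and at an unadjusted p under 0.05 stood Ring1 (0.29, adjusted p = 0.0818) and L3mbtl2 (-0.35, adjusted p = 0.116), where 3787 of all 10214 features did. Yaf2 had a difference of 0.27.

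The targets of replication and S phase that the study names as known E2F targets, 14 measured, were taken up with results of these cells known and are no independent evidence of their direction. In the serum comparison 11 fell and 0 rose, against 11.5% and 10.9% of all features, with a median of -0.80 against 0.00 for all features. Mcm3, a subunit of the replicative helicase, fell by 1.13 (SE 0.16, adjusted p = 0.00477), Cdk1, the mitotic kinase, by 1.03 (SE 0.17, adjusted p = 0.00769), and Tk1, which makes dTMP, by 1.22 (SE 0.21, adjusted p = 0.00855). The counts were 12 of 14 without the proliferating array of E2F3LQ clone 2 and 11 with the clone as a block. In the genotype comparison the median was 0.17 in proliferating and 0.61 in starved cells, and 0 passed. In starved cells 13 of 14 were higher in both E2F3LQ clones than in both WT clones, and in proliferating cells 4 of 14. Of all features, 33.9% in starved and 21.9% in proliferating cells had genotypes that did not overlap, in one direction or the other. By quantitative RT-PCR in starved cells, the study reported all of these targets significantly higher in E2F3LQ MEFs. The target not higher on the starved arrays was Pcna, at -0.10 (SE 0.18) with overlapping genotypes. Its probe was dim, at log2 signals of 4.32 to 4.75. Without the proliferating array of E2F3LQ clone 2 the proliferating median was 0.46, with 14 of 14 positive, and with no background correction the medians were 0.093 and 0.24.

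**Figure D5:**
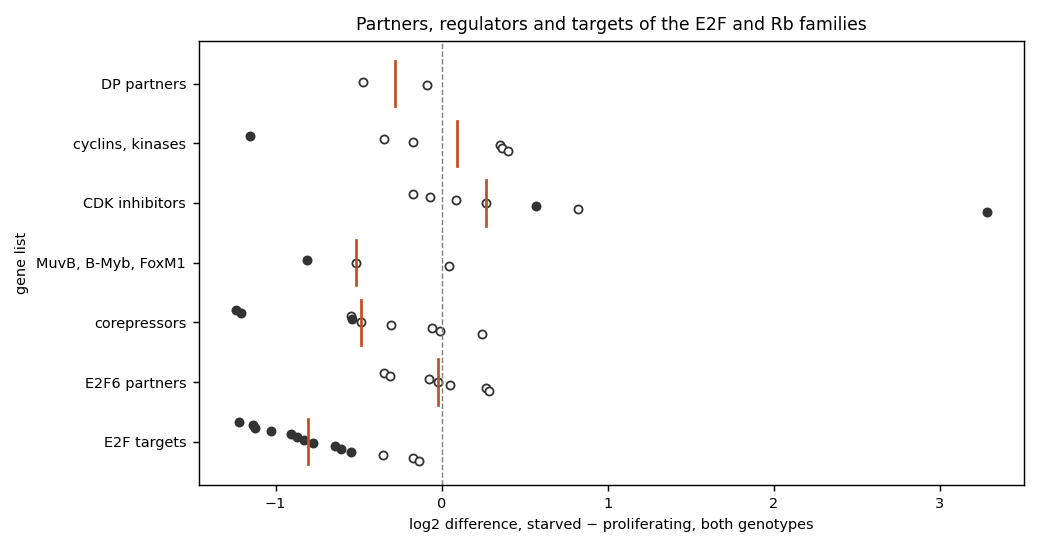
Log2 difference between starved and proliferating cells over both genotypes (horizontal axis) for the measured genes of 7 fixed lists (vertical axis), 1 point per gene, filled where the adjusted p was under 0.05, with a bar at the median of a list and a dashed line at the median of all features. The median of the E2F targets lies furthest to the left, at -0.80, with 11 of 14 filled. The single lowest point is the corepressor Rbbp7 at -1.24, and Cdkn2a stands at 3.28 among the CDK inhibitors.

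For the 4 called members, the features of most similar pattern were found by the root mean square difference of mean-centred log2 signals over the 8 arrays. Nearest to Rb1 were Tk2 (0.11), Trim11 (0.11) and Gtf3c5 (0.11), with serum differences of 0.79, 0.81 and 0.88. Nearest to E2f1 were Map3k14 (0.046), Nol9 (0.050) and an unnamed feature, nearest to E2f3 were Nav1 (0.077), Ebf2 (0.14) and Med10 (0.14), and nearest to E2f2 were Isoc2b (0.062), Ccnk (0.079) and Helz (0.084). As these were picked for their likeness over the same arrays, their differences are descriptions.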

How the data were processed

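Conditions, clones and replicate numbers came from the sample labels. The authors deposited a bead-averaged signal intensity for each probe and array, with no normalization visible, a detection p-value for each probe against negative control beads, and a table of normalized intensity values used as an alternative. The methods name GenomeStudio, without settings. The methods name the Mouse WG-6 array, while 25697 probes were deposited. Of these, 23978 carried a gene symbol in the platform annotation.

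Intensities were normalized with neqc of limma 3.58.1 (R 4.3.3, offset 16). The filter, a detection p-value under 0.05 on 2 or more arrays, left 13666 probes, and the brightest of a gene stood for it. A model of the 4 groups (4 residual degrees of freedom, 3.27 from the prior) gave 6 contrasts, with p-values adjusted by the Benjamini-Hochberg method over 10214 features. The genes named were the members, up to 3 genes per list with the smallest p in the serum comparison over both genotypes, and the 3 features nearest in pattern to each called member. The 2 fibroblast markers that fell in the serum comparison were named as well. The members and lists were chosen with earlier results of these data known. Ccne1 stood in 2 lists, and Emr1 was matched as Adgre1.

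The arrays of a clone are paired by the labels. Deviations of its proliferating and starved arrays from the group means correlated across features at 0.0906 in WT and 0.291 in E2F3LQ. Alternatives were other background corrections, offsets, scalings, filters and probe rules, a variance trend, subsets of arrays, blocks by clone or replicate number, the methods' unpaired test and leaving out each array. Leaving out both arrays of E2F3LQ clone 2 and reading the next brightest probe were added after the data were seen. Scripts were tested on simulated data.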

Additional observations from a re-analysis of the deposited data

Results flagged for a closer look

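No group held enough arrays for a test of single outlying arrays. Rb1 was flagged because both E2F3LQ clones lay above both WT clones in proliferating cells (log2 difference 0.33) and below both in starved cells (-0.308). The difference between these was tested as an interaction in limma and did not pass (adjusted p = 1.00, and 0.277 to 1.00 over the alternatives).

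Rbl2 was flagged for measured differences of the opposite signs, -0.218 in proliferating and 0.269 in starved cells. Its probe was detected on 2 of 8 arrays and on 0 of 2 in proliferating E2F3LQ and in starved WT cells, so these values give no settled direction. No fold is given in either condition, since every group held an array on which the probe was not detected. The interaction did not pass (adjusted p = 1.00).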

How the results depend on the processing

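Under each alternative run, 0 members were called between genotypes or in the interaction, and the WT serum comparison kept Rb1 except with the mean of passing probes (0 members called), with the methods' unpaired test (0), with the next brightest Rb1 probe (0.26, adjusted p = 0.595) and in 3 of the 8 fits that left out an array (0 to 1). In E2F3LQ 1 member, E2f3, was called with no detection filter. Over both genotypes, where 4 members were called, median scaling, the replicate block by clone and leaving out both arrays of E2F3LQ clone 2 gave 2 each, Rb1 and E2f3, and leaving out single arrays gave 1 to 3, with Rb1 in each. The replicate block by number, a number shared without pairing between genotypes, called 0 members in either condition, and the block by clone changed no call of a member other than E2f1 and E2f2. The cause of these changes was not tested.

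Of 537 member values under alternatives, 487 kept their direction and side of the threshold, 36 lost and 3 gained the call, and 11 changed sign. E2f3 and E2f2 stayed negative and E2f1 positive throughout the serum comparisons. Without single arrays the E2f5 difference between genotypes in proliferating cells ran from -0.54 to 0.018, its serum difference from -0.24 to 0.044, and that of Rbl1 from -0.11 to 0.11. The Rbl1 serum difference was -0.0010 with no background correction, -0.00078 with an offset of 50, -0.16 with median scaling and -0.11 without both arrays of E2F3LQ clone 2. In E2F3LQ the Rb1 serum difference was -0.12 with its next brightest probe. Rbl2 had no value where detection on at least 4 arrays was required.

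With 2 arrays per group, an exact permutation test of a genotype cannot go below 0.333. That of serum over 4 against 4 arrays cannot go below 0.0286 when the pairing of the arrays of a clone is left out. E2f2 and Rbl2 lay close to background, where an offset understates differences, and detection was incomplete. A probe that reads part of a transcript does not show the others.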
